A study of Homo sapiens with 8 samples.

Results

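The BCL2 family sets whether a stressed cell releases cytochrome c from its mitochondria and dies. Its effectors, BAX and BAK1, open the outer mitochondrial membrane; the anti-apoptotic proteins BCL2, BCL-XL (gene BCL2L1) and MCL1 hold them shut; and the BH3-only proteins, made or freed in response to stress, bind the anti-apoptotic proteins or act on the effectors directly. In epithelial cells that lose contact with matrix, this switch runs the form of death called anoikis, for which the BH3-only proteins BIM (gene BCL2L11) and BMF are the best known triggers.

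The genes described are 10: the BH3-only genes BCL2L11, BMF, PMAIP1 (NOXA), BBC3 (PUMA) and BID, the anti-apoptotic genes BCL2, BCL2L1 and MCL1, and the effectors BAX and BAK1. They were chosen by name, as rows of the expression table with a single gene symbol. Each of the 10 had exactly 1 probe set among the 19460 with a single symbol, so that 10 of 18417 tested genes are members. The cells were BT549, a human triple-negative breast cancer line grown in RPMI medium with 10% serum and insulin, with no genetic change or drug in either group. In the suspended group, 4 cultures spent 24 h on poly-HEMA, a coating that cells cannot stick to; in the attached group, 4 cultures grew on ordinary tissue culture plates. The labels give the attached cultures as 24 h in one field and as 48 h in another, so if the longer time holds, culture time and attachment cannot be told apart. The series calls the 4 samples of a group biological replicates; all come from 1 line, and p-values speak to the spread between these cultures.

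Values are log2 signals of 8 arrays, 1 per culture, with array medians between 6.02 and 6.07. Arrays correlated at r = 0.993 to 0.996 among suspended samples, at 0.995 to 0.996 among attached samples and at 0.987 to 0.994 between the groups. The mesenchymal marker VIM averaged 11.66 suspended and 11.73 attached, and the mesenchymal cadherin CDH2 was lower in suspended cells (8.56 suspended, 8.94 attached, limma adjusted p = 0.000104). FN1, the third mesenchymal marker, averaged 10.87 suspended and 10.79 attached and was not called (limma adjusted p = 0.216), though its suspended arrays all lay above its attached ones. The epithelial cadherin CDH1 averaged 4.26 suspended and 4.19 attached, and the hormone receptor genes PGR and ESR1 averaged 4.31 and 5.11 suspended and 4.19 and 5.04 attached. CDH1, PGR and ESR1 lay below 5.28, the 25th percentile of gene means. The other epithelial markers lay above it and were not called, KRT8 at 6.37 suspended and 6.42 attached and EPCAM at 5.35 suspended and 5.47 attached. ERBB2 stood above that level, at 7.53 suspended and 7.48 attached. Of 3 measured leukocyte markers PTPRC and CD3E lay below 5.28 in both groups, and CD14 was called higher in suspended cells (5.72 suspended, 5.50 attached, limma adjusted p = 0.0467). RNA came from cultures in bulk, with no measure of how many cells were dying. A change in the make-up of the culture and a change per cell therefore cannot be told apart. Whether these marker differences have a part in the results was not tested.

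BIM and BMF transcripts rose in suspended BT549 cells, while NOXA transcripts fell; BCL2 fell too, by a call that several alternatives ended. BCL2L11 signal was 1.77-fold higher, BMF 1.37-fold higher, PMAIP1 1.36-fold lower and BCL2 1.12-fold lower, on 4 arrays per group. The other 6 members, among them the effectors BAX and BAK1 and the anti-apoptotic MCL1 and BCL2L1, did not pass the test. Of the 10 members 4 were thus called at a limma adjusted p under 0.05, 2 higher and 2 lower, against a background of 20.6% of all 18417 genes (10.4% higher and 10.2% lower). The median log2 difference (suspended minus attached) was 0.00036 over the members and 0.02 over all genes. The sources used here state no background correction, so a fold is a ratio of signals and not of transcript amounts.

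**Figure D1:**
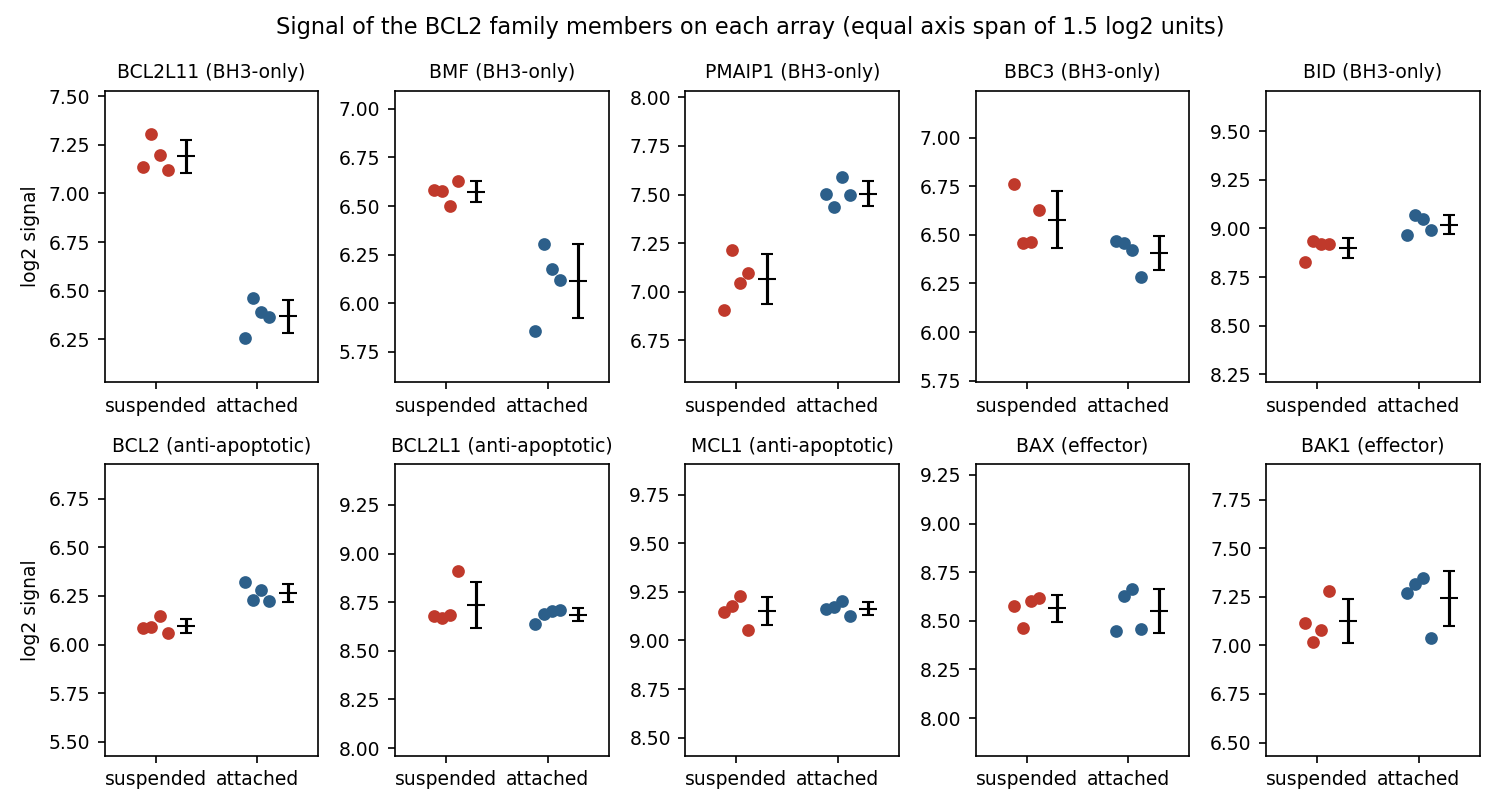
Log2 signal of each member on each of the 8 arrays, suspended in red at the left of each panel and attached in blue at the right; the black mark and bar are mean and SD (n = 4). Every panel spans 1.5 log2 units, so distances can be compared between panels: the groups stand clear of each other for BCL2L11, BMF and PMAIP1, by small gaps for BCL2 and BID, and overlap for the other 5.

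The promoters of the 3 BH3-only genes that moved are shown because BCL2L11 and BMF rose while PMAIP1 fell. Each is the stretch of 250 bases before the RefSeq transcription start in GRCh38.p14, read 5′ to 3′ on the gene's strand, and for BMF the first of its 2 windows in the RefSeq table; the other, chr15:40106967-40107216, held no match to any motif searched. BCL2L11 lies on chr2:111120664-111120913 (plus strand), BMF on chr15:40108880-40109129 (minus strand) and PMAIP1 on chr18:59899746-59899995 (plus strand). Capitals mark matches on either strand to the FOXO core GTAAACA, the GC box GGGCGG and the CCAAT box.
BCL2L11: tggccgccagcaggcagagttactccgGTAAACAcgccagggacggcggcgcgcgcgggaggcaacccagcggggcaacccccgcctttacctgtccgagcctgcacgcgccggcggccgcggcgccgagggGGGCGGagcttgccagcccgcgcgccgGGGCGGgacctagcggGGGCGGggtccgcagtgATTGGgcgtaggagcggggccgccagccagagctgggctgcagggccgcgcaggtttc
BMF: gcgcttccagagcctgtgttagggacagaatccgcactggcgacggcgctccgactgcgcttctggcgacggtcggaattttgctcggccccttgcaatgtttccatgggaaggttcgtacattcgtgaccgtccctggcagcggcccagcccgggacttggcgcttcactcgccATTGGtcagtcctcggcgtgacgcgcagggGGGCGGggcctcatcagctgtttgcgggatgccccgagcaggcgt
PMAIP1: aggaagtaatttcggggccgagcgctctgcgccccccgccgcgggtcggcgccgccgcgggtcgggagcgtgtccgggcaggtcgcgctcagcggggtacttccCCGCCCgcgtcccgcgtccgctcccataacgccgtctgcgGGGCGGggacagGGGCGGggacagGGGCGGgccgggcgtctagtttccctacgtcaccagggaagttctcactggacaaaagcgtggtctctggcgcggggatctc
The BCL2L11 window held 1 FOXO core on the plus strand, ending 216 bases before the start, and neither the BMF windows nor the PMAIP1 window held one. Of all 35116 windows of this length, 2.98% held that core. GC boxes numbered 3 in BCL2L11, 1 in the BMF window shown and 4 in PMAIP1, and 42.6% of all windows held at least 1. An inverted CCAAT box stood in the BCL2L11 and BMF windows shown and not in PMAIP1 (32% of all windows have one on either strand). The windows of BAK1, BAX and BBC3, which were not called, held inverted CCAAT boxes too. The AP-1 site TGANTCA, the cyclic AMP element TGACGTCA, the E-box CACGTG, the E2F site TTTNNCGC and the p53 consensus were searched as well. They had no match in the 3 windows shown. Of all windows, 6.57%, 1.65%, 6.34%, 5.92% and 0.0256% held them, in that order, so a lack of match tells little about these genes. The matches are of letters, and no binding was measured.

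BCL2L11 encodes BIM, which binds all the main anti-apoptotic proteins and can act on BAX directly. Its log2 signal was 7.13, 7.31, 7.20 and 7.12 on the suspended arrays, against 6.26, 6.46, 6.39 and 6.36 on the attached arrays. The lowest suspended array lay 0.66 above the highest attached one, the widest gap between groups among the members. The log2 difference was 0.82 (SE 0.059, 95% interval 0.69 to 0.95, limma adjusted p = 2.97e-06), which placed BCL2L11 at rank 80 from the top of 18417 genes. Its means were 7.19 ± 0.08 suspended and 6.37 ± 0.08 attached (SD, n = 4 each).

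BMF encodes a BH3-only protein that in attached cells is known to be tethered to the myosin V motor through the dynein light chain DYNLL2. Its log2 signal was 6.58, 6.58, 6.50 and 6.63 on the suspended arrays, against 5.86, 6.31, 6.18 and 6.12 on the attached arrays. The suspended arrays were close together, whereas attached replicate 1 lay low, and the groups did not overlap. The log2 difference was 0.46 (SE 0.082, 95% interval 0.28 to 0.64, limma adjusted p = 0.00214), rank 356 from the top. Without attached replicate 1 it was 0.37 (limma adjusted p = 0.00199).

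PMAIP1 encodes NOXA, which binds MCL1 in preference to the other anti-apoptotic proteins and is known as a p53 target. Its log2 signal was 6.91, 7.21, 7.04 and 7.10 on the suspended arrays, against 7.50, 7.43, 7.59 and 7.50 on the attached arrays. All 4 suspended arrays lay below all 4 attached ones, with a gap of 0.22. The log2 difference was -0.44 (SE 0.066, 95% interval -0.58 to -0.30, limma adjusted p = 0.000609), rank 306 from the bottom.

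BBC3 and BID, the remaining BH3-only genes, did not pass the test. BBC3 encodes PUMA, another p53 target, and read 6.76, 6.46, 6.46 and 6.63 on the suspended arrays, against 6.47, 6.46, 6.42 and 6.28 on the attached arrays. The groups met at 6.46, and the log2 difference of 0.17 (95% interval 0.01 to 0.33) had a limma adjusted p of 0.135. BID encodes the protein through which caspase-8 passes death receptor signals to mitochondria. It read 8.83, 8.94, 8.92 and 8.92 on the suspended arrays, against 8.96, 9.07, 9.05 and 8.99 on the attached arrays. The suspended values were all lower, by a gap of 0.03, with a log2 difference of -0.12 (95% interval -0.22 to -0.01, limma adjusted p = 0.107). BID passed the threshold under 3 of 10 alternatives that kept all arrays (limma adjusted p = 0.0415 at the lowest and 0.329 at the highest of the 10).

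Among the anti-apoptotic genes BCL2 fell by a small step and BCL2L1 and MCL1 did not pass. BCL2 read 6.08, 6.09, 6.14 and 6.06 on the suspended arrays, against 6.32, 6.23, 6.28 and 6.22 on the attached arrays. The groups were separated by 0.08, and the log2 difference was -0.17 (SE 0.046, 95% interval -0.27 to -0.07, limma adjusted p = 0.0216). The spread within groups was narrow for this gene, with SD of 0.04 suspended and 0.05 attached, and 7.01% of all genes had a pooled SD as small or smaller. The call was lost without suspended replicate 4 (log2 difference -0.16, limma adjusted p = 0.0521), attached replicate 1 (-0.15, 0.0619) or attached replicate 3 (-0.16, 0.0628). With all arrays kept it was lost with the replicate number as a block (-0.17, limma adjusted p = 0.0556) and with an intensity trend and robust prior (-0.17, limma adjusted p = 0.0532).

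BCL2L1, whose main product BCL-XL protects the mitochondrial membrane, averaged 8.74 ± 0.12 suspended and 8.69 ± 0.03 attached. Suspended replicate 4 read 8.91, while the other suspended arrays read 8.67 to 8.68 and the attached arrays 8.64 to 8.71. The log2 difference was 0.05 (95% interval -0.08 to 0.18, limma adjusted p = 0.601), and it was -0.01 without suspended replicate 4. MCL1, a short-lived anti-apoptotic protein and the main partner of NOXA, averaged 9.15 ± 0.07 suspended and 9.16 ± 0.03 attached. Its log2 difference was -0.01 with a 95% interval of -0.12 to 0.10 (limma adjusted p = 0.884). For MCL1 the interval thus allows a ratio of suspended to attached signal between 0.92 and 1.07, and for BCL2L1 between 0.95 and 1.13.

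Neither effector passed the test. BAX averaged 8.56 ± 0.07 suspended and 8.55 ± 0.11 attached, a log2 difference of 0.01 (95% interval -0.12 to 0.15, limma adjusted p = 0.905). BAK1 averaged 7.12 ± 0.11 suspended and 7.24 ± 0.14 attached, with a log2 difference of -0.12 (95% interval -0.29 to 0.05, limma adjusted p = 0.321). Suspended and attached arrays overlapped for both genes: BAX read 8.46 to 8.62 suspended and 8.45 to 8.66 attached, and BAK1 7.02 to 7.28 suspended and 7.04 to 7.34 attached.

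**Figure D2:**
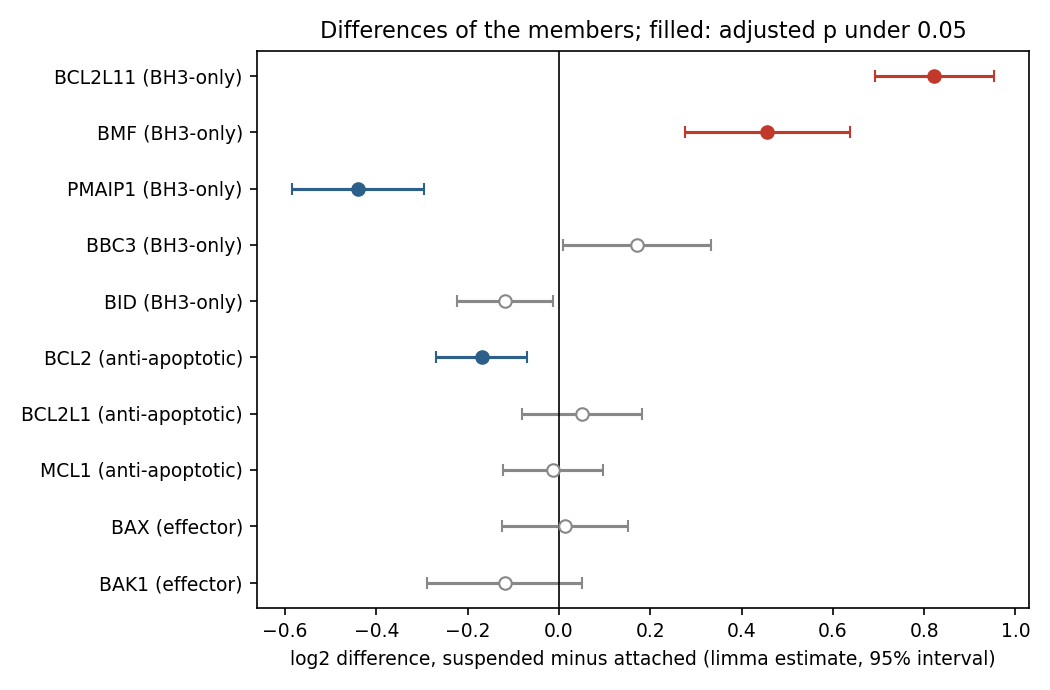
Log2 difference (suspended minus attached) of each member with its 95% interval from limma, ordered by role; filled points have an adjusted p under 0.05, red for higher and blue for lower in suspended cells. BCL2L11 (0.82) and BMF (0.46) lie to the right of 0 and PMAIP1 (-0.44) and BCL2 (-0.17) to the left, while MCL1 and BAX lie at 0.

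By role, 3 of 5 BH3-only genes, 1 of 3 anti-apoptotic genes and 0 of 2 effectors were called, where 20.6% of all genes were. Groups of 2 to 5 genes, chosen with earlier results of these data known, cannot be told from that share. The groups stood apart without overlap for 5 members, BCL2L11 and BMF above and PMAIP1, BCL2 and BID below; the background was 24.8% of all genes (12.7% higher and 12.2% lower). At an unadjusted p under 0.05 BBC3 (0.0412) and BID (0.0295) passed as well, and neither effector did; 5980 of all 18417 genes (32.5%) passed that threshold.

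**Figure D3:**
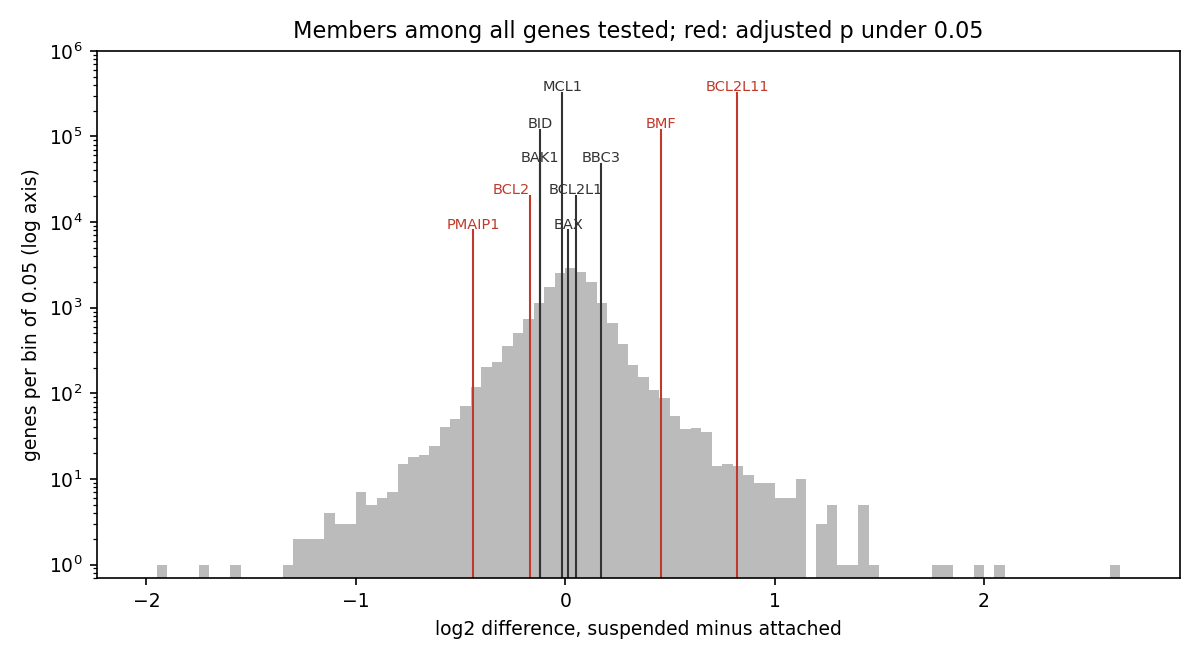
Distribution of the log2 difference (suspended minus attached) over 18417 genes in bins of 0.05 on a log count axis, with a line at each member (red: adjusted p under 0.05; line heights only separate the names). BCL2L11 stands in the right tail of the distribution, at rank 80, BMF and PMAIP1 lie in its flanks, and the remaining members lie between -0.17 and 0.17.

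Over the 8 arrays the 3 genes most like BCL2L11 by Pearson r were IFT80, an intraflagellar transport gene (r = 0.998), TKT, the transketolase of the pentose phosphate pathway (0.996), and the signalling ligand BMP4 (0.995). All arrays belong to the same 2 groups, so such an r mostly repeats the difference between groups. By the same measure BMF stood at 0.92, BCL2 at -0.93 and PMAIP1 at -0.89.

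Of 12 other BCL2 family genes measured, 1 rose and 1 fell, with a median log2 difference of 0.01. That share of 16.7% lies near the 20.6% of all genes. With quantile normalization 2 rose and 1 fell in this list. The same counts held with an intensity trend and robust prior, and without replicate 2 of either group. They also held with only genes above the 25th percentile or the median of gene means. BNIP3, a mitochondrial protein of the mitophagy pathway, fell to 9.17 suspended against 9.61 attached (log2 -0.44, limma adjusted p = 7.77e-05). Its relative BNIP3L, also a mitophagy receptor, was higher, at 11.23 suspended and 10.95 attached (log2 0.28, limma adjusted p = 0.00128).

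Among caspases, mitochondrial channels and their partners, more genes were called lower than higher. Of 24 measured genes of caspases, the apoptosome, mitochondrial channels and their inhibitors, 8 fell and 3 rose, with a median log2 difference of -0.02. When each array was instead centred on the median of the tested genes, a setting added after seeing the data, 10 fell and 1 rose. Over all genes that centring gave 1340 calls higher and 2472 lower, against 1910 and 1877 as reported. The split in this list was narrower under some other alternatives. It was 6 lower and 3 higher with quantile normalization, 5 and 3 with the replicate number as a block, and 4 and 3 without suspended replicate 4. CYCS, which encodes cytochrome c, fell (log2 -0.46, SE 0.075), with 7.41 suspended and 7.87 attached (limma adjusted p = 0.00114). BIRC2, which encodes the ubiquitin ligase cIAP1 (-0.41), and the nuclease inhibitor DFFA (-0.34) fell too. So did the channel gene VDAC2, whose product binds BAK (-0.30 at the brighter of its 2 probe sets, -0.29 with their mean). CASP9, the initiator caspase of the apoptosome, rose (0.25, limma adjusted p = 0.00325). XIAP, the inhibitor of caspase-9 and the executioner caspases, rose by 0.27 on the log2 scale (limma adjusted p = 0.0207); its call was lost without suspended replicate 2 or attached replicate 3 or 4 (log2 0.24 to 0.27, limma adjusted p up to 0.0669) and with centring on the gene median (0.23, limma adjusted p = 0.0532). APAF1, the scaffold of the apoptosome, read 6.51 suspended and 6.37 attached and was not called (limma adjusted p = 0.0986). Refits that each dropped 1 array gave this list 5 to 10 calls; the count moved by over 1.5 times without suspended replicate 1 (6) or 4 (7) and attached replicate 2 (7), 3 (5) or 4 (6).

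Among 13 genes whose products tether, modify or degrade BCL2 family proteins, 2 rose and 1 fell, with a median log2 difference of 0.03. USP9X, a deubiquitinase known to stabilise MCL1, rose (log2 0.24, limma adjusted p = 0.00291), with 8.84 suspended and 8.60 attached. PIM2, a survival kinase that phosphorylates BAD, fell (-0.30, limma adjusted p = 0.00315), with 7.57 suspended and 7.87 attached. TPT1, whose product binds MCL1, differed by 0.15 at its brighter probe set (limma adjusted p = 0.0419), a call lost with the mean of its 2 probe sets (0.04, limma adjusted p = 0.546), with either centring (0.12 and 0.10, limma adjusted p = 0.119 and 0.194), with the replicate block (0.0976) and when any array other than attached replicate 4 was left out (0.13 to 0.16, limma adjusted p of 0.0545 to 0.124). DYNLL1, the dynein light chain that binds BIM, averaged 10.35 suspended and 10.64 attached at the brighter of its 2 probe sets. It was not called (log2 -0.29, limma adjusted p = 0.0780), nor was DYNLL2, at 7.93 suspended and 7.99 attached (limma adjusted p = 0.458). DYNLL1 passed without suspended replicate 2 (-0.35, limma adjusted p = 0.0455) or attached replicate 2 (-0.36, limma adjusted p = 0.0438). It also passed with arrays centred on their median (-0.32, limma adjusted p = 0.0493) or on the gene median (-0.34, 0.0492), and with only genes above the median of gene means (-0.29, 0.0391). Either centring gave 1 higher and 2 lower in this list, as did leaving out attached replicate 2.

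Transcription factors known to act on BH3-only genes went either way, with 4 higher and 4 lower of 12 measured. FOXO1, a forkhead factor for which BCL2L11 is a known target, rose 1.46-fold. It read 8.06, 8.11, 8.09 and 8.04 on the suspended arrays, against 7.55, 7.47, 7.60 and 7.50 on the attached arrays, with no overlap (log2 0.55, SE 0.046, limma adjusted p = 1.04e-05). FOXO3, its better known relative in anoikis, read 5.19 suspended and 5.15 attached, below the 25th percentile of gene means, and was not called (limma adjusted p = 0.675). RUNX3 (log2 0.58), which acts with FOXO factors on BIM, and CEBPB (0.48) rose, and MYC (-0.40) and JUN (-0.32) fell, all 4 with a limma adjusted p of at most 0.000916.

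Survival signalling genes of attached cells were also mixed, with 6 higher and 5 lower of 26 measured. EGFR, whose signalling through ERK is known to keep BIM low in attached mammary cells, fell 1.37-fold, with 8.13 suspended and 8.59 attached (log2 -0.45, limma adjusted p = 0.000339). MAPK3, which encodes the kinase ERK1 of that pathway, rose 1.41-fold, with 8.84 suspended and 8.34 attached (log2 0.50, limma adjusted p = 7.56e-05). The focal adhesion genes PTK2 (log2 0.35) and BCAR1 (0.40) and the transcription factor STAT3 (0.31) rose as well.

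Of 8 measured death receptor genes 2 rose and 2 fell. TNFRSF10D, a decoy receptor for TRAIL, fell 1.43-fold, with 8.27 suspended and 8.79 attached (log2 -0.52, limma adjusted p = 1.16e-05), and the TNF receptor TNFRSF1A rose (log2 0.37, limma adjusted p = 0.000788). The TRAIL receptor TNFRSF10B (-0.19, limma adjusted p = 0.0321) and the adaptor TRADD (0.30, limma adjusted p = 0.0399) were called by smaller margins. In 8 refits that each dropped 1 array, TNFRSF10B was called when suspended replicate 2 or attached replicate 1 was dropped and in no other refit (-0.23 to -0.15), and it was not called with quantile normalization (-0.13, limma adjusted p = 0.109). TRADD was called when replicate 2 of either group was dropped and in no other refit (0.23 to 0.36), and it was not called with array weights (0.28, limma adjusted p = 0.0524) or with the replicate block (0.104). The list had 2 calls without suspended replicate 1, 3 or 4 or attached replicate 3.

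**Figure D4:**
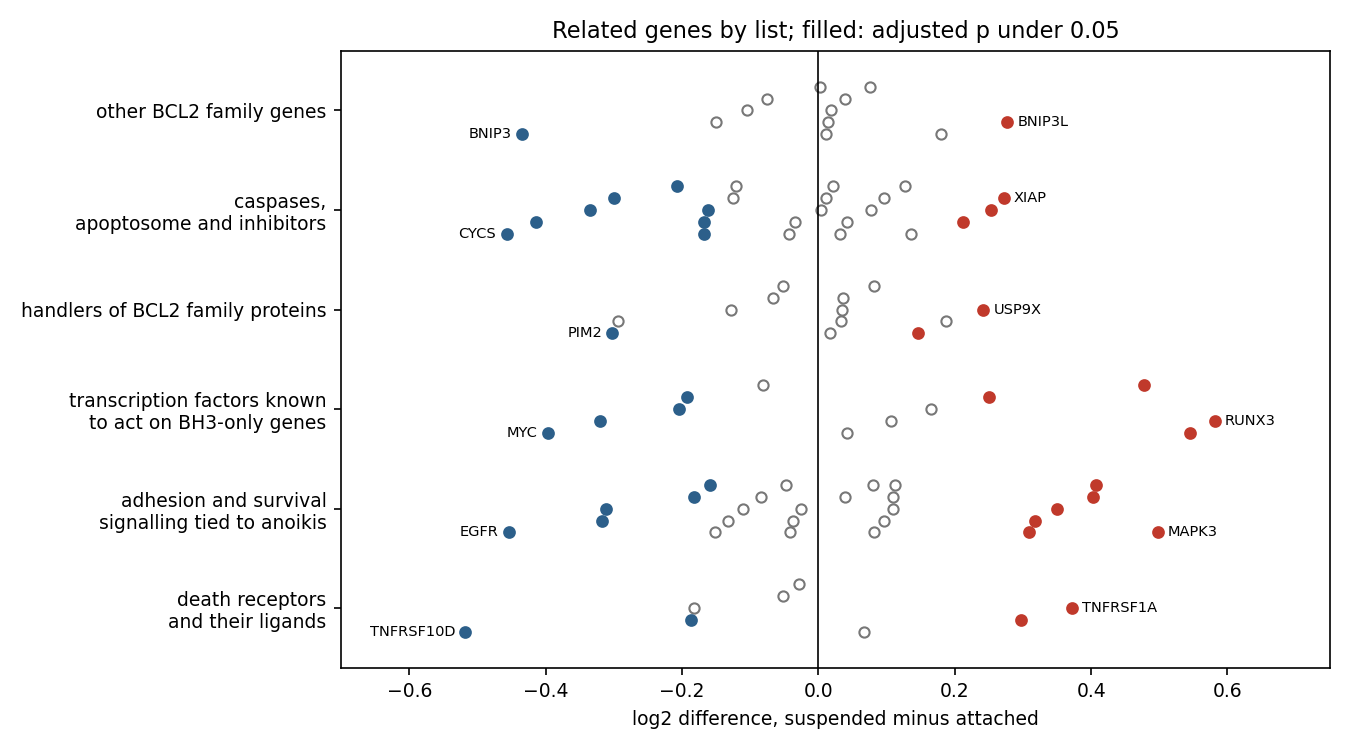
Log2 difference (suspended minus attached) of every measured gene of the 6 related lists, 1 row per list with points spread vertically for legibility; filled points have an adjusted p under 0.05, red for higher and blue for lower, and the lowest and highest called gene of each list is named. Called genes stand on both sides of 0 in every list, from TNFRSF10D at -0.52 to RUNX3 at 0.58.

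Shares of called genes in these lists are read against the background of 20.6%: they were 16.7% for other BCL2 family genes, 45.8% for caspases and their partners, 23.1% for the handlers of BCL2 proteins, 66.7% for the transcription factors, 42.3% for adhesion and survival signalling and 50% for death receptors. The lists were drawn up with results of these data known, and no test of a list was made.

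**Figure D5:**
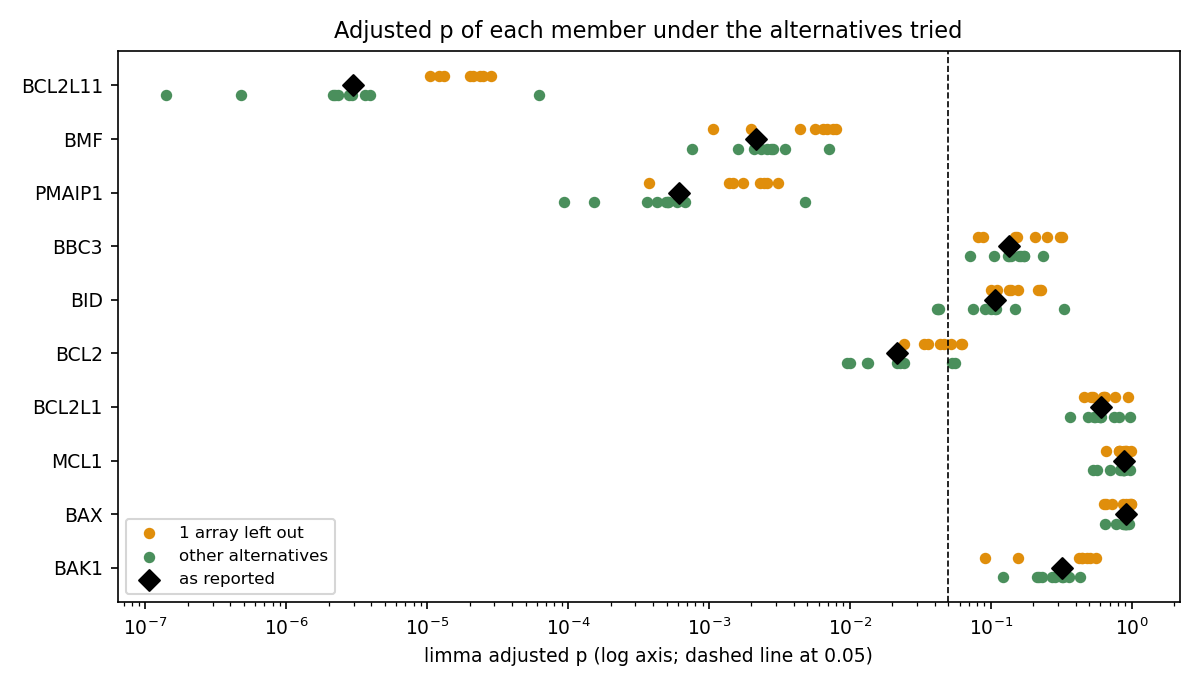
Limma adjusted p of each member on a log axis as reported (diamond), in the 8 refits that drop 1 array (orange) and under the other alternatives tried (green); the dashed line is 0.05. Over the alternatives shown, BCL2L11, BMF and PMAIP1 lie left of the line, BCL2 and BID have points on both sides, and the other 5 members lie right of it.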

How the data were processed

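Expression was measured in 8 cultures, 4 suspended and 4 attached, grouped by their titles. The deposited table holds log2 signals of 33297 probe sets; the log2 scale was inferred from the values, and Partek was used per the submitters' processing notes. The sources used here give no version, background correction or normalization. The kit in the labels is made for small RNA, so how RNA was labelled is uncertain. Arrays have no read depth; their number limits precision. Probe sets with 1 symbol in the platform annotation (19460) were reduced to 18417 genes by the highest mean over all arrays. Suspended and attached arrays entered limma 3.58.1 (R 4.3.3) (2-sided moderated test, no covariate), Benjamini-Hochberg over all genes, threshold 0.05, and the pipeline was tested on simulated data. Tables and plots used Python 3.11.15, pandas 2.3.3, numpy 2.4.6 and matplotlib 3.10.9. Alternatives were 10 settings that kept all arrays, 1 of them added after seeing the data, and 8 refits without 1 array.

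The members and the 6 lists were chosen with earlier results of these data known, and the promoter motifs after the sequences were seen. Named genes are all members, up to 5 called genes per list by smallest adjusted p, a few genes named for their role, and the 3 genes most correlated with BCL2L11. List genes with no tested probe set are not analysed here. Promoter sequences are from RefSeq, GRCh38.p14; 9 of 10 members matched, by symbol.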

Additional observations from a re-analysis of the deposited data

Results flagged for a closer look

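In 3 of 78 groups of 4 arrays screened, 1 array stood apart from the other 3 by Dixon's ratio; chance alone flags about 1 in 20. BCL2L1 read 8.91 on suspended replicate 4, against 8.67 to 8.68 on the other suspended arrays. BID read 8.83 on suspended replicate 1, against 8.92 to 8.94 on the others. TNFRSF10D read 8.33 on suspended replicate 4, against 8.25 on the others, still below every attached array.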

How the results depend on the processing

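BCL2L11, BMF and PMAIP1 kept their direction and call under every alternative that gave them a value (log2 differences of 0.78 to 0.85, 0.37 to 0.52 and -0.49 to -0.39 over all of them); BMF and BCL2 have no value with only genes above the median of gene means. BCL2 was -0.17 and not called with an intensity trend and robust prior (limma adjusted p = 0.0532) or with the replicate number as a block (0.0556), and ran from -0.19 to -0.15 with 1 array left out. BID was called at -0.12 with the trend (0.0423) and with only genes above the median (0.0429), and at -0.16 when arrays were centred on the median of the tested genes (0.0415), an alternative chosen after seeing the data. That centring gave 35.2% of calls higher over all genes, against 50.4% as reported (1340 higher and 2472 lower), and the count of members called to 5. All genes called ranged from 2934 to 3752 with 1 array left out, calls in the caspase list from 5 to 10 and in the death receptor list from 2 to 4. Replicate numbers did not pair the arrays (correlation of deviations -0.20 to 0.04, and no array was closest to its own number); the block gave 3022 calls over all genes, against 3787, and 3 of the members. Of 29 named list genes, FOXO3, DYNLL1, DYNLL2 and APAF1 had no call to lose, and DYNLL1 gained a call under several alternatives. Among the others 4 lost their call under some alternative (XIAP, TPT1, TNFRSF10B and TRADD). None of the 29 reversed.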
